A study of Mus musculus with 7 samples.

Results

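Parietal cells, the acid-secreting cells of the stomach, made up 143 of 2235 kept wells in single-cell libraries of mouse gastric epithelium. A well was kept when it held at least 1000 unique molecular identifiers (UMIs, tags that count captured transcripts), spike-in RNAs left out. A kept well was taken as parietal when Atp4a and Atp4b, which encode the catalytic and the accessory subunit of the gastric proton pump, gave at least 0.5% of its UMIs, so the members were chosen by the measured counts of these 2 genes. The libraries were made by SORT-seq, in which a sorter places single living cells into a plate and the CEL-seq2 chemistry counts their transcripts. There were 3 plates labelled pylorus, the outlet of the stomach, and 4 labelled corpus, its main body, each with 384 wells and each from wild-type C57BL/6 mice with no treatment named. Pylorus replicates 1, 2 and 3 held 3, 12 and 17 parietal wells, and corpus replicates 1, 2, 3 and 4 held 4, 10, 56 and 41. Genes were compared between the regions on the 5 plates with at least 10 parietal wells. The labels do not say which animals a plate came from, so each p-value measures the spread between plates.

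A parietal cell pumps protons into the gland lumen in exchange for potassium, using the pump as an ATP-driven exchanger in folded canalicular membranes. Potassium channels and chloride transporters in the same membrane keep the exchange going, while anion exchangers on the opposite side return bicarbonate to the blood. Histamine, acetylcholine and gastrin start secretion by moving pump-bearing vesicles to the canaliculus. The cell burns much ATP for this, is packed with mitochondria, and relies on the nuclear receptor Esrrg for its energy and ion transport genes.

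The plates held 2646492 to 9511078 UMIs. In the plates named pylorus 2, pylorus 3, corpus 3 and corpus 4 the parietal wells were deep, with medians of 37031.5, 42795, 39338.5 and 34161 UMIs, against 20016, 22626.5, 23280 and 24443 in the other kept wells. In pylorus 1, corpus 1 and corpus 2 the median parietal well held 3160, 7175 and 2773 UMIs. Pump transcripts took a median of 1.77%, 1.37% and 1.82% of the UMIs of parietal wells in pylorus replicates 1 to 3, and 2.84%, 0.734%, 1.35% and 1.35% in corpus replicates 1 to 4, while the median of other wells was at most 0.0601%. The 5 wells nearest above the threshold held 0.551%, 0.556%, 0.567%, 0.589% and 0.624%, of which the lowest 4 were all from corpus replicate 2. The nearest below it held 0.498%, 0.4933%, 0.439%, 0.410% and 0.408%. Plates share their 384 well numbers by layout, and 121 numbers held a parietal well in 1 plate, 11 in 2 plates and 0 in more.

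**Figure D1:**
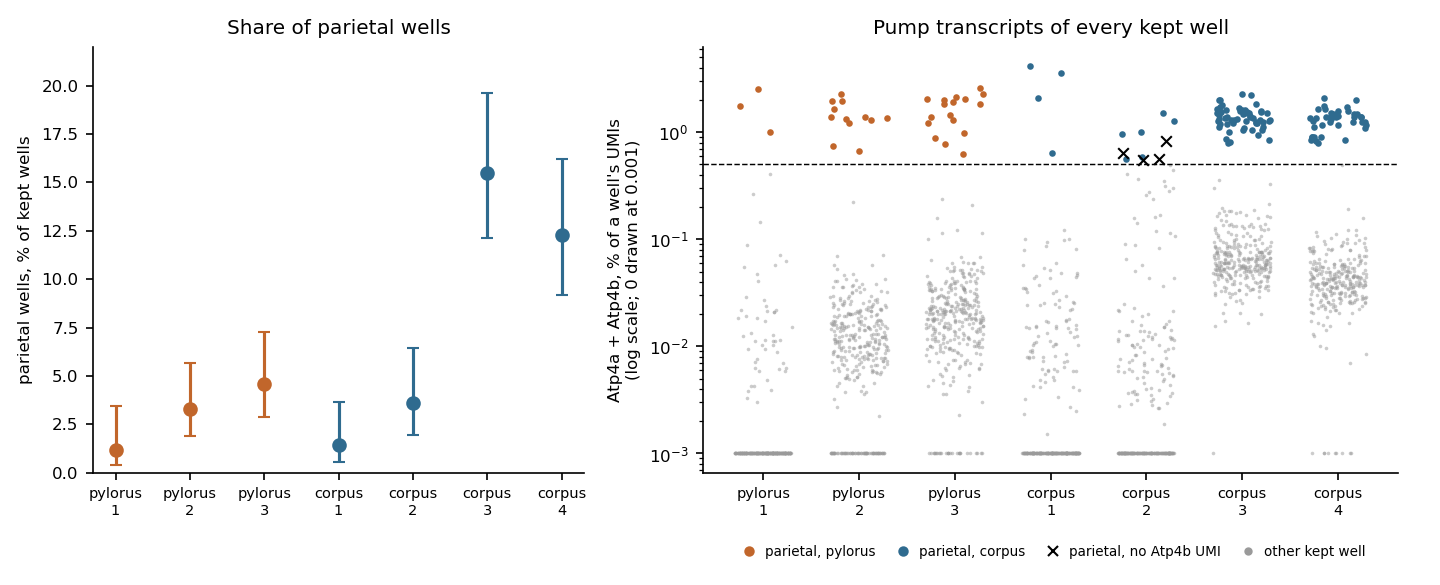
Left, parietal wells as a percentage of kept wells in each plate with 95% Wilson intervals. Right, the share of Atp4a and Atp4b among the UMIs of every kept well on a log scale, where the dashed line is the 0.5% rule and crosses are the 4 parietal wells of corpus replicate 2 with no Atp4b UMI.

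Of the parietal wells of corpus replicate 2, those without Atp4b went against their name. Of its 10 wells, 4 held 31958 to 50133 UMIs with 176 to 415 Atp4a UMIs each and 0 Atp4b UMIs. In the sum of these 4 wells the chief cell product Gif, gastric intrinsic factor in the mouse, stood at 15051 CPM and the chitinase Chia at 98728 CPM, whereas Tnni3 and Ckb had 0 UMIs (CPM are UMI counts scaled to a total of 1000000 over the summed wells). The other 6 wells were shallow, with 1193 to 3420 UMIs, and held 43 Atp4a and 80 Atp4b UMIs in all, beside 7 of Tnni3, 8 of Ckb, 7 of Kcne2 and 1 of Esrrg. Summed, these 6 wells stood at 575 CPM of Tnni3, 657 CPM of Ckb, 411 CPM of Fabp3 and 411 CPM of Clic6, so they carried parietal markers at few UMIs. They carried chief cell genes as well, with Chia at 13228 CPM and Gif at 1643 CPM. Parietal wells of corpus 3 and 4 had 1238 and 1278 CPM of Chia and 76.8 and 99.3 CPM of Gif. The chief cell marker Pgc stood at 201709 CPM in the 6 wells and at 107446 CPM in the 4 without Atp4b. Summed over all 10 wells, chief cell markers reached 319934 CPM, against 49982 to 61005 CPM in pylorus 2, pylorus 3, corpus 3 and corpus 4. Wells with more than 500 CPM and at least 10 UMIs of Atp4a but Atp4b at 5% of it or less, a rule set after this pattern was seen, numbered 26 in corpus 2, 3 in pylorus 1 and 0 in the other 5 plates. Corpus 2 was also the plate with transcripts of the Y-linked genes Ddx3y (424 UMIs), Eif2s3y (243), Kdm5d (79) and Uty (122) and 0 of Xist, while the other 6 plates held 381 to 2753 Xist UMIs and, apart from 1 Ddx3y UMI in corpus 3, none of the 4 Y-linked genes. Results on genes are therefore given with corpus replicate 2 (5 plates) and without it (4 plates). The 4-plate results were added after its wells had been seen.

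In the 4 plates the defining markers stood high. Esrrg stood at 985 and 977 CPM in parietal wells of pylorus 2 and 3 and at 595 and 581 CPM in those of corpus 3 and 4. In corpus 2 it stood at 12.2 CPM, which came from 2 UMIs, and the chloride channel protein Clic6 at 85.2 CPM, against 1420 to 2046 CPM in the 4 plates. The 4 deep wells without Atp4b gave 1 of the 2 Esrrg UMIs and 9 of the 14 Clic6 UMIs. The shallow plates pylorus 1 and corpus 1 had Esrrg at 1964 and 657 CPM from 25 and 30 UMIs. The pump genes themselves, which chose the wells, had 7542, 4366 and 4840 CPM of Atp4a in pylorus replicates 1 to 3 and 20929, 6424, 3971 and 3874 CPM in corpus replicates 1 to 4. For Atp4b the values were 12414, 10196 and 10386 CPM in pylorus replicates 1 to 3 and 15735, 487, 10321 and 9468 CPM in corpus replicates 1 to 4. Over the single parietal wells of a plate the rank correlation of Atp4a with Atp4b was 0.52 (12 wells) in pylorus 2, 0.38 (17) in pylorus 3, 0.68 (56) in corpus 3 and 0.44 (41) in corpus 4, and -0.54 (10) in corpus 2. The wells of a plate share their library, and a rule on the sum of both genes bears on these values.

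Parietal wells were 1.2%, 3.30% and 4.61% of kept wells in pylorus replicates 1 to 3 and 1.44%, 3.58%, 15.5% and 12.3% in corpus replicates 1 to 4. Corpus 3 and 4 stood above every pylorus plate, and corpus 1 and 2 lay within the pylorus range. The 95% Wilson intervals, which cover counting error only, ran from 2.90% to 7.25% in pylorus 3 and from 9.18% to 16.2% in corpus 4. The mean share was 3.03% ± 1.72 in pylorus (SD, n = 3) and 8.20% ± 6.76 in corpus (SD, n = 4), a difference of -5.17 percentage points that was within the spread of the plates (exact permutation test, two-sided, p = 0.343, where 35 regroupings allow no p below 0.0286). With 1 UMI of Atp4b also required, corpus 2 kept 6 wells and the difference was -4.81 percentage points.

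Set beside the other kept wells of the same plate, parietal wells had more transcripts of the given markers and of some genes of acid transport. This contrast holds the genes that chose the wells and is given as a description with no test. A gene was called when its CPM + 2 differed at least 4-fold in every plate, among genes with a mean of at least 10 CPM in parietal or other wells. In 4 plates 97 of 7943 genes were higher (1.22%) and 295 lower (3.71%), and the median gene stood at -0.39 on the log2 scale. In 5 plates 18 of 8076 genes were higher (0.223%) and 177 lower (2.19%). All 7 markers were called higher in 4 plates and 4 of 7 in 5 plates.

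The largest ratios in 4 plates belonged to genes of very different roles. 1810010D01Rik had 2296 and 2305 CPM in parietal wells of pylorus 2 and 3 and 2414 and 2156 CPM in those of corpus 3 and 4, against 20.1, 62.1, 64.1 and 42.0 CPM in the other wells of these plates. Apoa1, the main protein of high-density lipoprotein, had 2509, 2068, 3113 and 2796 CPM in parietal wells against 30.3, 47.0, 123 and 74.2 CPM in other wells. Igfbp2, which binds insulin-like growth factors, had 117, 144, 177 and 151 CPM in parietal wells against 0.513, 2.54, 4.41 and 4.43 CPM. Thus the lowest parietal value of each of these 3 genes lay above the highest value of other wells. Fa2h, a fatty acid hydroxylase, averaged 4.34 on the log2 scale above other wells, Cd36, a fatty acid carrier of the plasma membrane, 4.33, and Kank1, a regulator of the actin skeleton, 4.23.

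Of 16 measured genes of acid transport beside the pump, 6 were called higher and 0 lower. Kcne2 and Kcnq1 encode the accessory and the pore-forming subunit of the potassium channel that feeds the pump. Kcne2 had 557, 465, 275 and 283 CPM in parietal wells of pylorus 2, pylorus 3, corpus 3 and corpus 4 against 8.08, 11.0, 11.2 and 6.85 CPM in other wells, and Kcnq1 685, 486, 610 and 507 CPM against 60.9, 52.7, 74.8 and 62.0 CPM. Slc26a9, an apical chloride transporter, averaged 4.65 on the log2 scale above other wells, Aqp4, the basolateral water channel, 3.62, and Slc4a2, the exchanger that returns bicarbonate, 3.06. The sixth gene, the inward rectifier potassium channel Kcnj16, stood at 207, 228, 220 and 218 CPM in parietal wells against 31.2, 24.0, 35.5 and 43.1 CPM in other wells. Kcnj15, a rectifier of the same family, had 401 to 432 CPM and, with an average log2 ratio of 1.39, was not called. Of 18 measured genes of vesicle traffic to the canaliculus, 0 were called, with a median of -0.24, and the linker protein Ezr stood 1.11 above other wells on average. Among receptors for secretagogues the histamine receptor Hrh2 had 21.7, 19.8, 13.4 and 13.0 CPM in parietal wells against 3.08, 3.62, 1.79 and 1.48 CPM in other wells, an average of 2.08 that was not 4-fold in every plate.

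The region before the start of the pump gene shows one of the short motifs long linked to parietal genes. In the rat, GATA-binding factors are known to bind near the starts of both pump genes. The 250 bases before the start of Atp4a (RefSeq, mouse build GRCm38.p6, plus strand, chr7:30711959-30712208) and of Kcnj16 (chr11:110967783-110968032, plus strand) are printed 5′ to 3′ because the first belongs to the pump and the second holds AAGGTCA, the core of the sites that receptors of the Esrrg family bind. Capitals mark GATA on either strand in the first (TATC on the printed strand) and AAGGTCA in the second (TGACCTT on the printed strand).
Atp4a: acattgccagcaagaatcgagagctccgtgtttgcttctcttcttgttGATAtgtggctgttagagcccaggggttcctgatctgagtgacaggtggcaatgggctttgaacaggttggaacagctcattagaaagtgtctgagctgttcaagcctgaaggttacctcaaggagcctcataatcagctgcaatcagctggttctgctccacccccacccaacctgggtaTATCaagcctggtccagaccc
Kcnj16: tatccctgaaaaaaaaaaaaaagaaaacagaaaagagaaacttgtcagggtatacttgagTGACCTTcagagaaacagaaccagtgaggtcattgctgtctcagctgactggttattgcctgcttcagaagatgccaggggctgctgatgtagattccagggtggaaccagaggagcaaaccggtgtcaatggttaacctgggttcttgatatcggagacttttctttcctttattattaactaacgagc
GATA began 202 bases before the start of Atp4a on the printed strand and 21 bases before it on the other strand. It was found on either strand in 57.4% of 27025 genes with a window of this length, and in 52.1% of the 71 windowed genes among the 97 that were higher in parietal wells. AAGGTCA lay 190 bases before the start of Kcnj16, in 1 of 4 windows of that gene, and the first window held none. The Kcnj16 window also holds GATA, left in lower case, 1 time on the printed strand (42 bases before the start) and at 2 places on the other strand (250 and 40 bases before it). AAGGTCA was found in 4.70% of all genes, in 4 of the 71 (5.63%) and in 5 of 65 nuclear genes of oxidative phosphorylation (7.69%). GATA and AAGGTCA do not overlap in these windows, 2 of the GATA matches of Kcnj16 overlap each other, a match of so few letters is a description, and the counting of the deposited tables used another build.

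Genes of oxidative metabolism stood higher as a group without many 4-fold calls. The nuclear genes of respiratory complexes I to V had median log2 ratios to other wells of 1.5 (36 genes), 1.58 (4), 1.44 (9), 1.57 (13) and 1.33 (17), set against -0.39 for all genes. Of these 79 genes the 1 called was Cox7a1, the heart and muscle form of a cytochrome oxidase subunit, with 87.0, 82.9, 86.2 and 114 CPM in parietal wells of pylorus 2, pylorus 3, corpus 3 and corpus 4 against 2.18, 3.02, 4.27 and 2.82 CPM in other wells. The 13 mitochondrially encoded genes had a median of 1.54 and the 22 genes of the citrate cycle one of 1.54. Mitochondrial transcripts took a median of 23.6%, 23.8%, 26.7% and 29.0% of a parietal well's UMIs in these plates, against 7.47%, 7.53%, 8.39% and 9.52% in other wells. In corpus 2 these shares were 4.07% in parietal wells and 9.05% in other wells. In 1000 UMIs drawn from each well, the median number of genes was 465.5, 459, 388.5 and 377 in parietal wells of the 4 plates against 501, 505.5, 458 and 494 in other wells.

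Of the list of muscle-like genes 1 was measured, Tnni3, a given marker. Of 13 genes of energy buffering 2 were called higher, Ckb, also a marker, and Slc25a4, with a list median of 0.24. Of 21 genes of fatty acid oxidation 2 were called higher, Fabp3, also a marker, and Cd36, with a median of 1.2. Tnni3, the inhibitory troponin of heart muscle, had 461, 558, 758 and 755 CPM in parietal wells of pylorus 2, pylorus 3, corpus 3 and corpus 4 against 8.21, 28.9, 42.6 and 24.7 CPM in other wells. Ckb, the creatine kinase that buffers ATP, averaged 4.65 above other wells on the log2 scale, Fabp3, the heart form of fatty acid-binding protein, 4.81, and Slc25a4, the heart and muscle ATP carrier, 2.87. Of 13 measured regulators of energy genes, Esrrg, its coactivator Ppargc1a (69.6, 59.2, 134 and 126 CPM against 5.65, 6.52, 11.7 and 9.80 CPM) and Ppara, a receptor that drives fatty acid oxidation, were called higher, with a list median of 0.21. The endodermal factor Hnf4a was called lower, at 6.52, 11.9, 15.6 and 15.8 CPM in parietal wells against 99.95, 101.6, 90.2 and 98.8 CPM in other wells. Of 10 secreted factors, Pthlh and Vegfb were called higher, and Gif (93.5, 90.8, 76.8 and 99.3 CPM against 1141, 1200, 1030 and 1069 CPM) and Shh were called lower.

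Many markers of other gastric cells were lower in parietal wells, and their sums were not at 0. Of the measured markers, 4 of 7 of pit cells (median -3.18), 5 of 5 of neck cells (-3.29), 4 of 7 of chief cells (-2.54), 4 of 6 of endocrine cells (-2.45), 6 of 6 of tuft cells (-3.26) and 4 of 6 of mast cells (-2.86) were called lower in 4 plates. The summed markers of pit cells gave 18565, 14664, 14977 and 23501 CPM in parietal wells of pylorus 2, pylorus 3, corpus 3 and corpus 4 against 87696, 73195, 70022 and 85113 CPM in other wells. Those of chief cells gave 60665, 49982, 52205 and 61005 CPM against 135723, 128511, 115146 and 113086 CPM. The sums in parietal wells of the regions overlapped for both lists, and the pit marker Krt20, the chief marker Lipf and the endocrine marker Gast were at 0 in parietal wells of all 4 plates. Ghrl, the hormone of the ghrelin cell, reached 678, 825.5, 235 and 123 CPM in parietal wells against 3746, 3360, 1180 and 641 CPM in other wells. Its transcripts were found in 97.6% to 100% of parietal wells of the 4 plates and in 87.7% to 99.4% of other wells. Whether UMIs of another class's genes came from the parietal cells themselves was not tested, nor was their part in the results below.

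**Figure D2:**
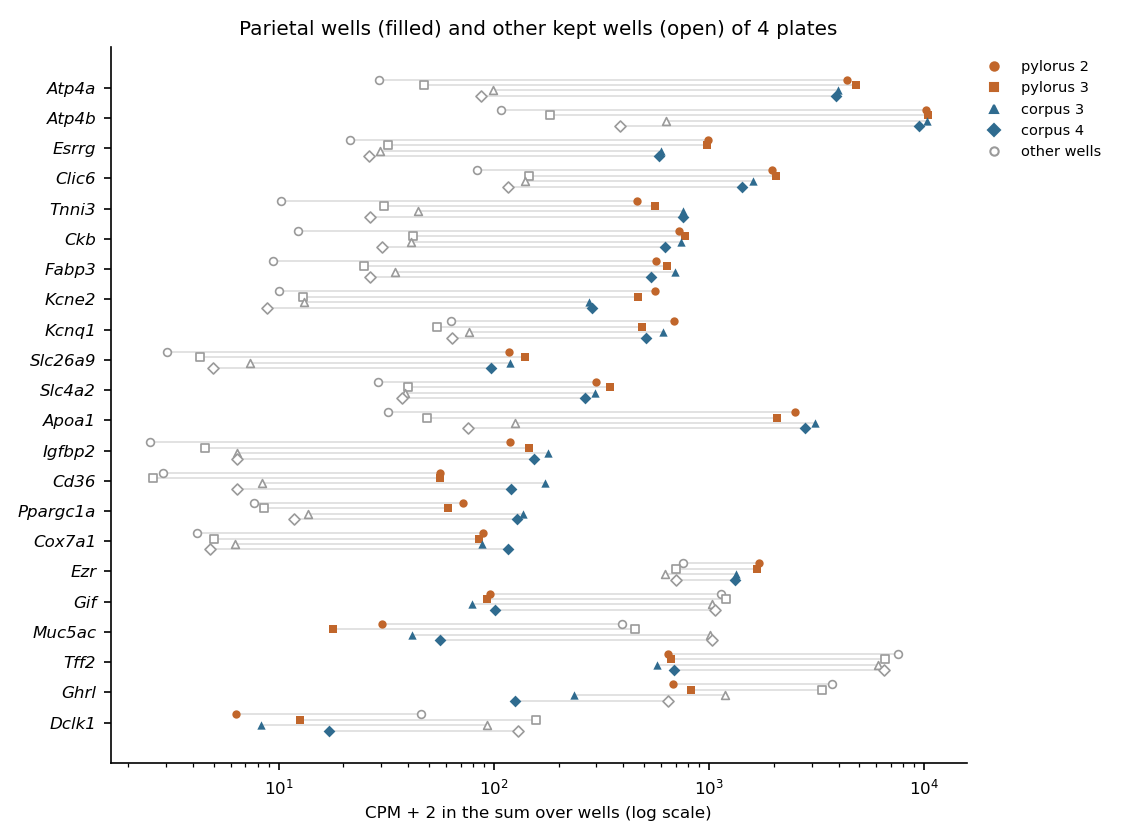
CPM + 2 on a log scale in the summed parietal wells (filled symbols) and the summed other kept wells (open symbols) of 4 plates, with 1 row per gene and 1 line per plate. From Atp4a to Ezr the parietal values lie to the right of the other wells, and from Gif to Dclk1 they lie to the left.

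Between the regions, no gene of parietal wells passed when all 5 plates entered. On TMM-scaled CPM (scaled by trimmed means of M values) 0 of 6096 genes (0%) had a limma p under 0.05 after Benjamini-Hochberg adjustment, 283 had an unadjusted p under 0.05, and limma with voom weights gave 0 as well. Without corpus replicate 2, 542 of 6836 genes (7.93%) passed, of which 248 (3.63%) were higher and 294 (4.30%) lower in pylorus than in corpus parietal wells, and 1523 had an unadjusted p under 0.05. These calls rest on 2 plates against 2, with 2 residual degrees of freedom and 16.5 borrowed from the spread of all genes. Scaling to all UMIs in place of TMM moved the median of all genes from -0.02 to 0.28 on the log2 scale and the calls to 806 higher and 147 lower. Leaving out 1 of these 4 plates leaves 1 plate in a region. The spread within that region then cannot be measured, so no count of passing genes is given for such fits. Without the 25% of parietal wells richest in markers of other cell types 118 genes passed, and with wells thinned to 3000 UMIs 41 of 886 did. Plates of the regions did not overlap, higher in pylorus, for 26.4% of the tested genes and, lower in pylorus, for 26.1%. Below, values are TMM-scaled CPM of pylorus 2 and 3 and of corpus 3 and 4, and the lowest adjusted p of any named gene with corpus 2 included was 0.870 (limma).

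Transcripts that were nearly absent from pylorus parietal wells led the change. Meg3, a noncoding RNA of an imprinted gene cluster, had 10.2 and 1.12 CPM in pylorus and 220 and 389 CPM in corpus parietal wells, a log2 difference of -5.58 ± 0.43 (SE, limma, adjusted p = 6.27e-07). B4galnt2, a glycosyltransferase of mucin-type sugar chains, had 0 and 1.12 CPM in pylorus and 81.8 and 77.5 CPM in corpus, and Prlr, the prolactin receptor, 0 and 1.12 CPM in pylorus and 33.1 and 36.3 CPM in corpus. The 3 genes were named among those without overlap between the plates of the regions, so this separation follows from the naming rule. B4galnt2 and Prlr met the count filter through the corpus plates alone. Cmss1, Tex15, Zcchc11, Plekhb1, Ppp2r2c, Obp2a, St3gal1 and Ifi27l2a were also lower in pylorus, by log2 differences from -3.82 to -2.98. Zcchc11, which adds uridines to RNA ends, had 6.11 and 2.25 CPM in pylorus and 46.3 and 48.7 CPM in corpus. Rian, a noncoding RNA of the Meg3 cluster, had 2.04 and 1.12 CPM in pylorus and 19 and 19.8 CPM in corpus. Of 6 tested imprinted genes, 3 fell, Meg3, Rian and Kcnq1ot1, and 0 rose, although 1 rose under scaling to all UMIs. As a share of all tested genes, 4.30% fell. Kcnq1ot1 runs antisense within Kcnq1, and whether the counting used strand is not given in the sources used here.

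The difference of Meg3 was not shared by the other wells of the same plates. There it had 103 and 83.7 CPM in pylorus and 71.6 and 66.0 CPM in corpus. To ask where the region difference of parietal wells departed from that of the other wells, the ratio of parietal to other wells within each plate was compared between the regions. With all 5 plates 0 of 6096 genes passed (0%; 241 at an unadjusted p under 0.05, limma), and without corpus replicate 2, 141 of 6836 did (2.06%; 50 higher, 0.731%, and 91 lower, 1.33%). Scaling to all UMIs gave 528 genes on the 4 plates. The difference of differences was -6.00 ± 0.45 for Meg3 (SE, limma, adjusted p = 5.66e-05), -4.10 ± 0.43 for B4galnt2 (adjusted p = 0.000458) and -3.52 ± 0.49 for Prlr (adjusted p = 0.00316). Rian also passed (-2.82), as did Esrrb, which had no UMI in pylorus parietal wells. The hormone Sst also fell in parietal wells (16.3 and 0 CPM in pylorus, 47.7 and 425 CPM in corpus), but other wells had 197, 2.34, 346 and 1303 CPM in pylorus 2, pylorus 3, corpus 3 and corpus 4, and Sst did not pass this comparison.

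Single wells showed how these transcripts were spread. A Meg3 UMI was found in 3 of 12 and 1 of 17 parietal wells of pylorus 2 and 3 and in 35 of 56 and 28 of 41 of corpus 3 and 4. When wells were thinned to 10000 UMIs, leaving 12, 16, 56 and 40 parietal wells, the shares were 16.7% and 6.25% in pylorus and 42.9% and 62.5% in corpus, and 19.4%, 13.0%, 13.3% and 17.2% in other wells of these plates. The highest corpus well reached 1876 CPM, and the median well held 28.0 and 156 CPM in corpus 3 and 4. The corpus parietal wells thus ranged from no Meg3 UMI to high levels within 1 plate. B4galnt2 was found in 0 and 1 parietal wells of pylorus 2 and 3 and in 37 and 27 of corpus 3 and 4, with thinned shares of 0%, 6.25%, 50% and 45.0%.

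Within the corpus plates wells with Meg3 differed in other genes. Of the wells with a Meg3 UMI, 77.1% in corpus 3 and 78.6% in corpus 4 also held B4galnt2, against 47.6% and 38.5% of the wells without one. The median Tfrc level was 21.8 and 10.8 CPM in wells with Meg3 and 39.3 and 47.0 CPM in wells without, and median Aqp4 was 499 and 458 CPM with Meg3 and 400 and 199 CPM without. Median depth was 39810 and 28946 UMIs with Meg3 and 35460 and 36627 UMIs without, so it ran in opposite directions in the 2 plates. The rank correlation over wells of corpus 3 and of corpus 4 was 0.67 and 0.53 for Meg3 with Rian, 0.40 and 0.39 for Meg3 with B4galnt2, and -0.39 and -0.38 for Meg3 with Tfrc. For Aqp4 with Tfrc it was -0.51 in pylorus 2, -0.26 in pylorus 3, -0.35 in corpus 3 and -0.50 in corpus 4. These are descriptions of wells that share a library and its depth.

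**Figure D3:**
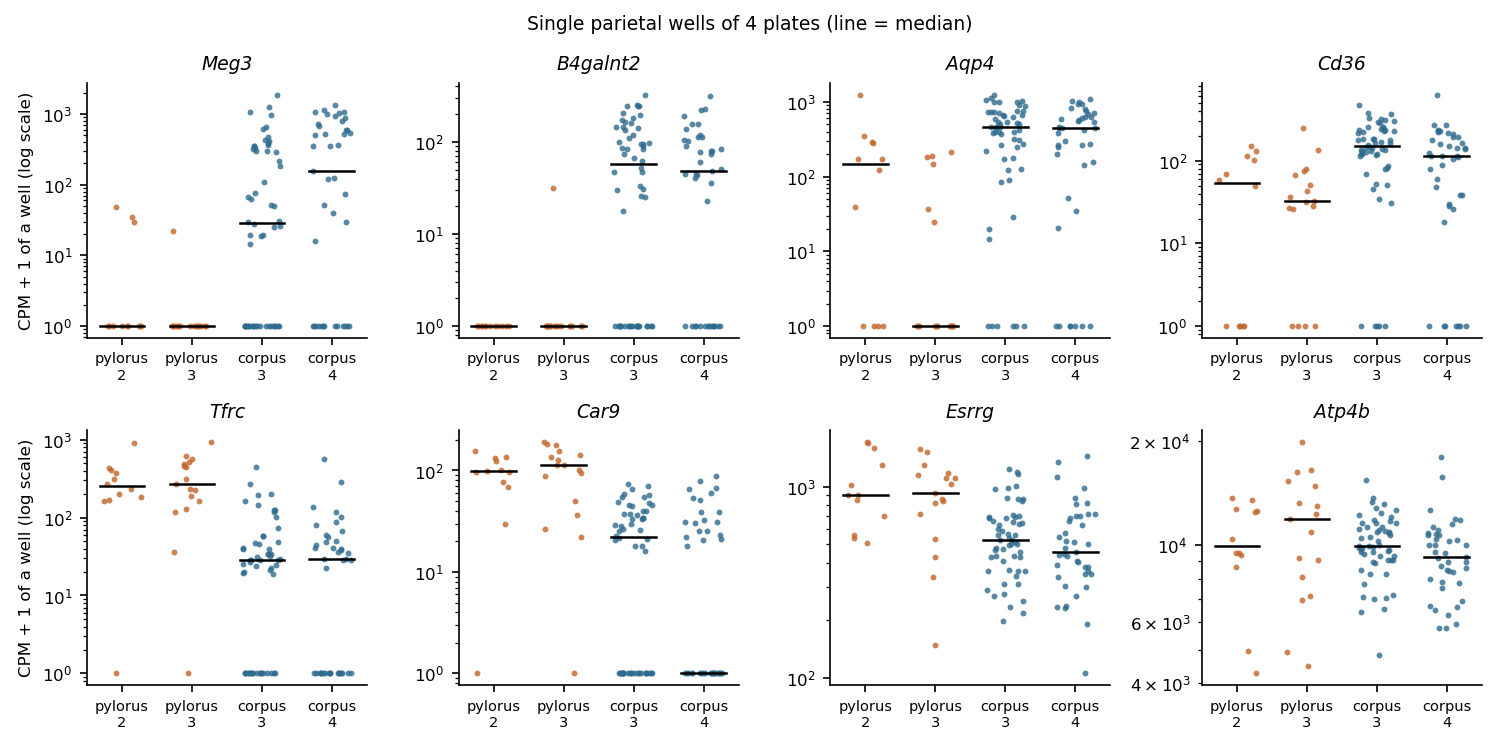
CPM + 1 on a log scale in every parietal well of pylorus 2, pylorus 3, corpus 3 and corpus 4 (12, 17, 56 and 41 points), with the median as a line and wells without a UMI at 1. Meg3 and B4galnt2 are spread over corpus wells and nearly missing from pylorus wells, Tfrc and Car9 lie higher in pylorus wells, and Esrrg is present in every well. Atp4b, present in every well too, is 1 of the 2 genes that chose the wells.

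The ion transport programme differed between the regions in a few genes, beside 3.63% of all tested genes that rose and 4.30% that fell. Of 16 tested genes of acid transport, Aqp4 and Slc26a7, a basolateral anion exchanger, fell and Kcne2 rose, with a list median of -0.11 beside -0.02 for all genes, which scaling to all UMIs turned to 0.21. Aqp4 had 159 and 39.4 CPM in pylorus and 503 and 448 CPM in corpus (-2.55 ± 0.36, SE, limma, adjusted p = 0.000272). Against other wells, which had 6.88, 7.72, 26.9 and 24.6 CPM of Aqp4 in pylorus 2, pylorus 3, corpus 3 and corpus 4, it did not pass (-0.97, adjusted p = 0.262, limma), nor did Kcne2 (0.51), while Slc26a7 did (-2.25). Slc26a7 had 2.04 and 2.25 CPM in pylorus and 21.4 and 17.3 CPM in corpus. Kcne2 had 521 and 397 CPM in pylorus and 300 and 324 CPM in corpus (0.54, adjusted p = 0.0487, limma), and it no longer passed in 8 of 15 alternatives on the 4 plates. At least 1 Aqp4 UMI was found in 66.7% and 35.3% of parietal wells in pylorus 2 and 3 and in 89.3% and 82.9% in corpus 3 and 4, against 7.39%, 10.2%, 35.4% and 29.7% of other wells. The acetylcholine receptor Chrm3 fell, with 4.07 and 6.75 CPM in pylorus and 20.9 and 22.3 CPM in corpus, and did not pass against other wells (-1.09). Of 19 trafficking genes, Rab11a, a GTPase of recycling vesicles, was the 1 that passed, at 97.7 and 87.7 CPM in pylorus and 139 and 175 CPM in corpus.

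The levels of the pump genes chose the wells, so their values in the regions are given as a description and support nothing. Atp4a had 4088 and 4135 CPM in pylorus and 4329 and 4442 CPM in corpus on the TMM scale, and Atp4b 9547 and 8874 CPM in pylorus and 11252 and 10855 CPM in corpus. Of the 5 other markers, Tnni3 passed, with 432 and 477 CPM in pylorus and 827 and 866 CPM in corpus (-0.90 ± 0.15, SE, limma, adjusted p = 0.000871), and with corpus 2 the difference turned to 0.40. Against other wells Tnni3 did not pass (0.12). Esrrg had 922 and 835 CPM in pylorus and 649 and 666 CPM in corpus (0.42 ± 0.14, adjusted p = 0.0843, limma). Clic6 (0.09), Ckb (-0.18) and Fabp3 (-0.35) did not pass either. The adjusted p of these 3 was at least 0.185 (limma). The list median of -0.18 turned to 0.14 when plates were scaled to all UMIs.

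**Figure D4:**
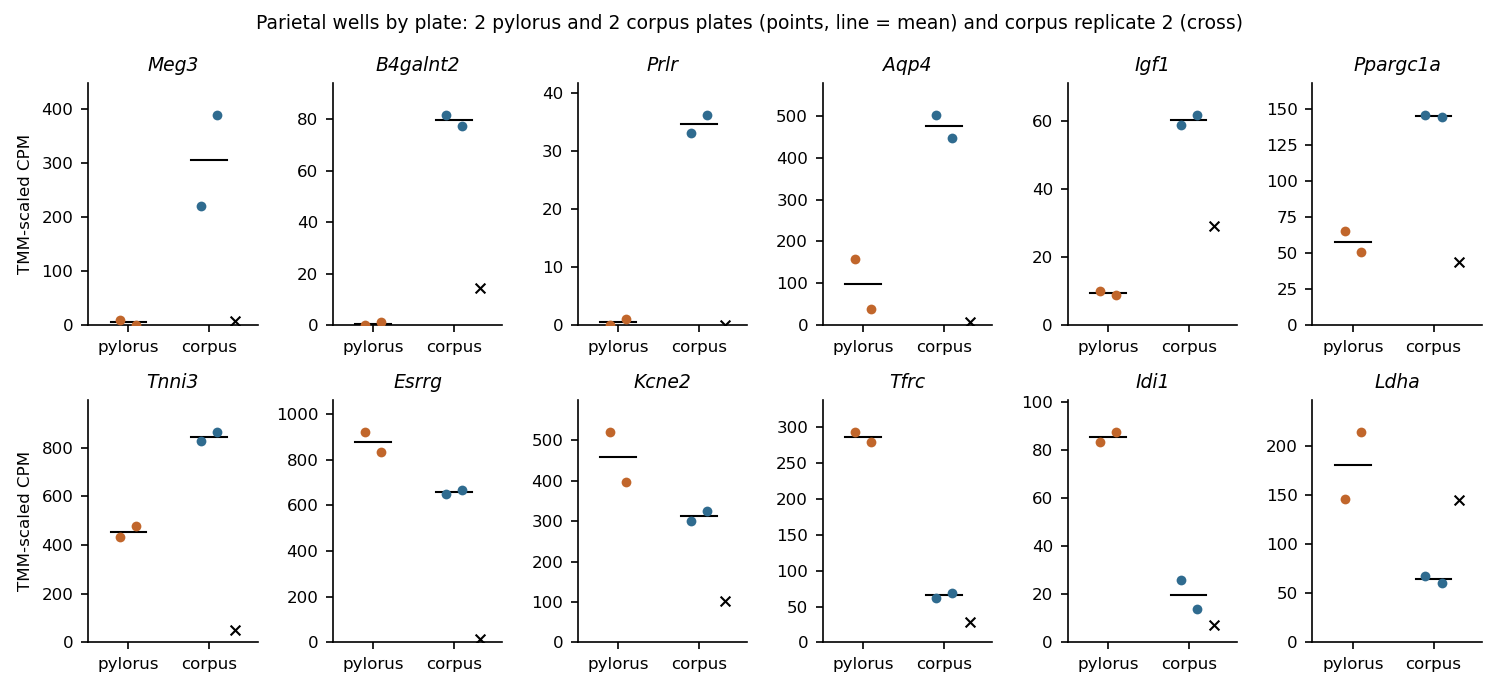
TMM-scaled CPM in the summed parietal wells of 2 pylorus plates and 2 corpus plates (points, with the mean as a line) on linear axes from 0. The cross is corpus replicate 2 from the 5-plate scaling. It lies below all others for Aqp4, Ppargc1a, Tnni3, Esrrg, Kcne2, Tfrc and Idi1. For Meg3, Prlr and Ldha it lies near the pylorus plates, and for B4galnt2 and Igf1 between the regions.

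Of 13 mitochondrially encoded genes 9 fell and 0 rose in pylorus. All 13 mitochondrially encoded genes were lower in both pylorus plates than in both corpus plates, and their median was -0.71. Among all tested genes 26.1% were without overlap and lower in pylorus, and 4.30% passed as lower. Under scaling to all UMIs 12 of 13 stayed below 0, 4 passed and the median was -0.39, beside 0.28 for all genes. mtNd4, a complex I subunit, had 25183 and 22572 CPM in pylorus and 42123 and 47466 CPM in corpus, and mtNd4l, which overlaps it in the genome, -1.02 on the log2 scale. The median share of mitochondrial transcripts in a parietal well was 23.6% and 23.8% in pylorus and 26.7% and 29.0% in corpus, with 7.47% and 7.53% in pylorus and 8.39% and 9.52% in corpus for other wells. In the comparison with other wells 0 of the 13 genes passed, with a median of -0.38.

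Of the 79 tested nuclear genes of the respiratory complexes, 16 rose, 0 fell and 63 did not pass in pylorus. The shares over all tested genes were 3.63% higher and 4.30% lower. By complex, 5 of 36 genes of complex I rose (median 0.34), 1 of 4 of complex II (0.29), 2 of 9 of complex III (0.31), 3 of 13 of complex IV (0.16) and 5 of 17 of complex V (0.37). Under scaling to all UMIs these counts were 22, 3, 5, 7 and 14, with none lower. That scaling shifted all genes, so that 806 of 6836 passed as higher and 147 as lower. The complex I median less that of all genes was 0.353 under TMM and 0.374 under scaling to all UMIs. Atp5g3, which encodes the proton-carrying ring of ATP synthase, had 2940 and 2273 CPM in pylorus and 1480 and 1398 CPM in corpus (0.84 ± 0.15, SE, limma, adjusted p = 0.00224). Cycs, cytochrome c, had 1692 and 1629 CPM in pylorus and 895 and 912 CPM in corpus (0.88, adjusted p = 0.000789, limma). In the comparison with other wells, 2 of the 79 passed, Atp5g3 (0.74) and Cyc1 (0.65), the heme subunit of complex III, and Cycs did not (0.61).

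Of 22 genes of the citrate cycle 10 rose, 3 fell and 9 did not pass, with a median of 0.46. Over all tested genes 3.63% rose and 4.30% fell, with a median of -0.02. Among the citrate cycle genes that rose were Cs, citrate synthase, and Mdh2, the mitochondrial malate dehydrogenase. Idh3a, of the NAD-dependent isocitrate dehydrogenase, had 350 and 351 CPM in pylorus and 200 and 172 CPM in corpus (0.91). Idh2, the NADP-dependent enzyme, had 77.4 and 79.9 CPM in pylorus and 177 and 158 CPM in corpus (-1.07). The other genes that fell were Pdk4 (6.11 and 9.0 CPM in pylorus, 28.7 and 32.2 CPM in corpus) and Pdk2, kinases that switch off pyruvate dehydrogenase. Idh3a (0.78) and Idh2 (-1.19) were the 2 of the 22 that passed the comparison with other wells, and with wells thinned to 3000 UMIs the region difference of Idh3a was -0.041.

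Of 13 tested regulators of energy genes 3 fell and 0 rose. Ppargc1a had 65.2 and 50.6 CPM in pylorus and 146 and 144 CPM in corpus (-1.31 ± 0.20, SE, limma, adjusted p = 0.000543). Esrrb, a receptor of the Esrrg family, was at 0 in both pylorus plates and at 14.6 and 18.1 CPM in corpus, where 32.1% and 39.0% of parietal wells held a UMI against 1.31% and 3.75% of other wells. The acetyltransferase Kat2b was the third that fell. Of 21 genes of fatty acid oxidation, Cd36 (50.9 and 46.1 CPM in pylorus, 187 and 136 CPM in corpus) and Acsl1, which activates fatty acids, fell and 0 rose. The median of these 21 genes was -0.03, beside -0.02 for all genes, of which 7.93% passed in either direction. Igf1, the insulin-like growth factor, had 10.2 and 9.0 CPM in pylorus and 58.9 and 61.8 CPM in corpus (-2.43). Against other wells Ppargc1a (-0.61, adjusted p = 0.155, limma), Cd36 (-0.24, adjusted p = 0.530, limma), Igf1 (-1.24) and Kat2b (-0.93) did not pass, while Acsl1 (-1.01) did.

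**Figure D5:**
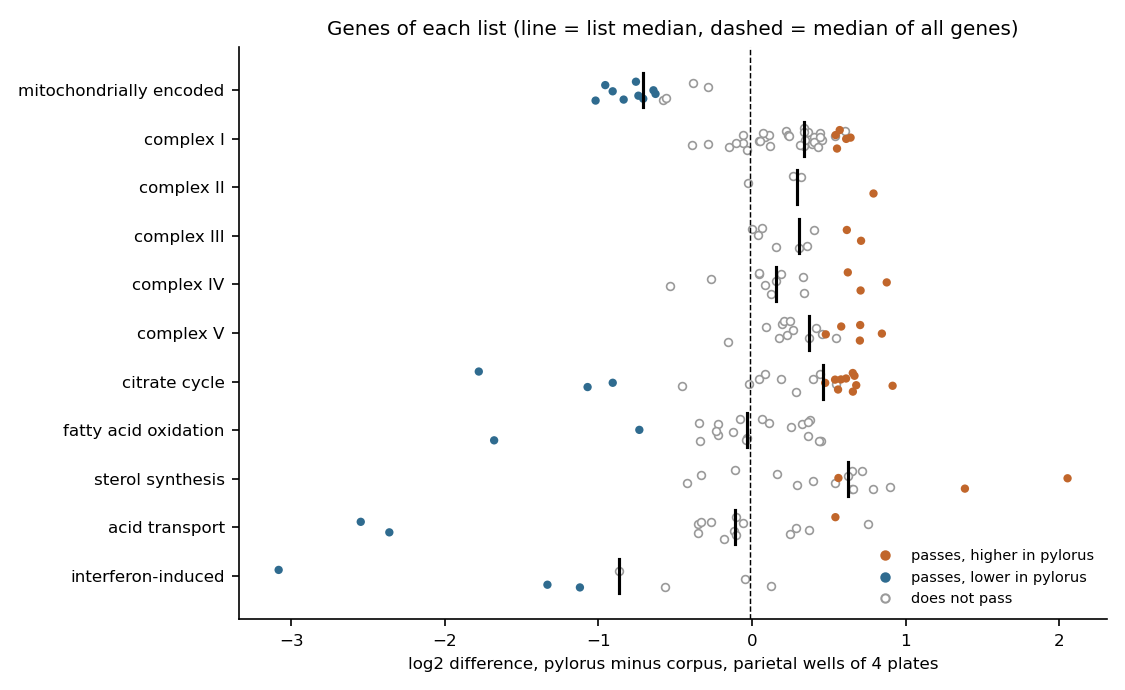
Log2 differences, pylorus minus corpus, of the tested genes of 11 lists in the parietal wells of 4 plates, where coloured points passed at an adjusted p under 0.05 in limma. The bold line is the median of a list and the dashed line that of all genes, and all 13 mitochondrially encoded genes lie left of it.

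Single genes of iron handling, sterol synthesis and the response to low oxygen rose in pylorus, where 3.63% of all tested genes rose and 4.30% fell. Tfrc, the transferrin receptor, had 293 and 279 CPM in pylorus and 62.3 and 69.3 CPM in corpus (2.09 ± 0.18, SE, limma, adjusted p = 1.09e-06), against 73.0, 70.5, 49.9 and 53.3 CPM in other wells of pylorus 2, pylorus 3, corpus 3 and corpus 4. The ferritin gene Fth1 fell by 0.55 on the log2 scale, and these were the 2 that passed of 11 genes of iron handling. Of 17 sterol genes, Idi1, Cyp51 and Hmgcs1 rose and 0 fell, with a median of 0.62. Idi1, an isoprenoid isomerase, had 83.5 and 87.7 CPM in pylorus and 25.8 and 14 CPM in corpus, while other wells had 77.2, 70.8, 73.4 and 64.2 CPM. Of 20 genes induced by low oxygen, 4 rose (Car9, Ldha, Pgk1 and Pgam1) and 2 fell, with a median of 0.07, beside -0.02 for all genes. Those that fell were Bnip3 (-0.86), of mitochondrial clearance, and Pfkfb3 (-1.0), a regulator of glycolysis. Pfkfb3 stood at 0.66 with corpus 2 included. The carbonic anhydrase Car9 had 83.5 and 94.5 CPM in pylorus and 25.3 and 23.1 CPM in corpus, and Ldha, lactate dehydrogenase, 147 and 215 CPM in pylorus and 68.2 and 61.0 CPM in corpus. Tfrc (1.63), Idi1 (1.95), Car9 (1.51) and Ldha (1.23) passed the comparison with other wells, and Cyp51 (1.46), Hmgcs1 (0.52) and Fth1 (-0.35) did not. For Tfrc the share of wells thinned to 10000 UMIs that held a UMI was 83.3% and 87.5% in pylorus and 37.5% and 22.5% in corpus, and for other wells 38.7%, 38.4%, 27.8% and 30.8%.

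Of 21 interferon-induced genes 7 were tested, of which Ifi27l2a, Ifi27l1 and Ly6e fell, 0 rose and 4 did not pass, with a median of -0.87. The share of all tested genes that fell was 4.30%, and their median was -0.02. Ifi27l1 had 444 and 517 CPM in pylorus and 1051 and 1037 CPM in corpus, against 125, 148, 109 and 112 CPM in other wells, and Ly6e 195 and 147 CPM in pylorus and 399 and 464 CPM in corpus. All 3 passed the comparison with other wells, and with corpus 2 included Ifi27l1 stood at 0.53. B2m, the light chain of class I antigen presentation, also fell (-0.98). Ghrl, a marker of endocrine cells, rose in parietal wells (635 and 705 CPM in pylorus, 256 and 141 CPM in corpus). Bpifb1, a secreted defence protein, rose too (289 and 326 CPM in pylorus, 57.0 and 83.3 CPM in corpus), while other wells had 178 and 343 CPM in pylorus and 12 and 17.7 CPM in corpus, so that its difference from other wells passed in the negative direction (-1.78, adjusted p = 0.00190, limma). Ghrl was higher in pylorus in other wells too, at 3718, 3255, 1240 and 635 CPM in pylorus 2, pylorus 3, corpus 3 and corpus 4, and the part of such transcripts in the parietal values was not tested. The mast cell genes Kit and Mcpt2 fell, with summed mast markers of 107 and 134 CPM in pylorus and 196 and 190 CPM in corpus. With corpus 2 included their differences were 0.44 and 0.72. Kit had log2 ratios to other wells of 1.01, -0.48, 1.45 and 1.39 in pylorus 2, pylorus 3, corpus 3 and corpus 4, and Mcpt2 ones of -3.01, -3.17, -2.71 and -2.0. The mitotic cyclin Ccnb1 rose, with 10.2 and 39.4 CPM in pylorus and 1.46 and 5.77 CPM in corpus. The summed proliferation markers were 124 and 442 CPM in pylorus and 107 and 119 CPM in corpus, so pylorus 3 stood apart.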

How the data were processed

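Each of the 7 plates was deposited as a table of UMI counts per gene and well, with spike-in rows. The units were treated as other than a plain count column, because the table layout does not pass the check that count models need. Per the submitters' processing notes the genome build was mm9, and neither the aligner nor the counting settings are given in the sources used here. The tables hold 18906 genes, and duplicate symbols were summed.

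UMIs were summed over the parietal wells and over the other kept wells of each plate. CPM of parietal and other wells were scaled to all UMIs, and region CPM by TMM (30% of ratios and 5% of abundances trimmed). Genes needed 10 counts at the median library size and 15 in all plates. log2(CPM + 2) was tested with limma 3.58.1 in R 4.3.3 using a mean trend and Benjamini-Hochberg adjustment over all tested genes at 0.05. Summaries used Python 3.11.15, pandas 2.3.3, numpy 2.4.6, scipy 1.17.1 and matplotlib 3.10.9. Shares were compared by an exact permutation test over plates, with 95% Wilson intervals for counting error only. Plates held 2646492 to 9511078 UMIs, and wells of a plate were never taken as replicates. Doublets were not called, since wells were filled by single-cell sorting. Both gene tests were checked on simulated counts for the recovery and direction of changes that had been set. The simulated plates shared the same mean profile, with none set apart like corpus 2. The check therefore cannot tell how the p-values hold for the spread of these plates.

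The members and the 37 gene lists (528 genes) were chosen with earlier results of these data known. Genes were named by a rule. It took the markers, the 15 genes with the largest lowest-plate ratio at 32 CPM or more, and up to 4 members of each list. It also took the 12 largest passing changes in each direction between regions. These had to reach 32 CPM or more without overlap between the plates of the regions. Alternatives were other pump thresholds and depths, thinned wells, pseudocounts, scalings, filters, voom weights and leaving out each plate. The 4-plate comparisons and the rule with 1 Atp4b UMI were chosen after seeing the data.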

Additional observations from a re-analysis of the deposited data

Results flagged for a closer look

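Among 18 values tested for a plate far from the others over the 4 corpus plates, 8 stood apart, and 7 of them belong to corpus replicate 2. That plate held 26 wells with Atp4a but next to no Atp4b, and in its parietal wells Esrrg stood at 12.2 CPM and Clic6 at 85.2 CPM. Over all its kept wells the Y-linked genes Ddx3y, Eif2s3y, Kdm5d and Uty reached 72.0, 41.3, 13.4 and 20.7 CPM. The remaining value was Atp4a in corpus replicate 1, at 20929 CPM over 4 parietal wells. Of the 8 values, 4 are Y-linked genes of 1 plate, and the count of 26 wells follows a rule set after its pattern was seen. The values are thus not independent, and their number cannot be set against chance. What these values have in common was not tested.

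The region difference of parietal wells departed from that of other wells (limma, 4 plates, adjusted p under 0.05) for 141 genes, of which the 8 with the largest difference in each direction, among those with at least 32 CPM in 1 sum, follow. The difference was more positive for Rom1 (2.20), Idi1 (1.95), Gstm6 (1.93), Cfi (1.72), Tfrc (1.63), Car9 (1.51), Aprt (1.46) and Serpinb1a (1.35). It was more negative for Meg3 (-6.00), B4galnt2 (-4.10), Prlr (-3.52), Cmss1 (-3.42), St3gal1 (-3.29), Plekhb1 (-3.11), Ppp2r2c (-2.99) and Ifi27l2a (-2.82). With all 5 plates 0 of 6096 genes passed (limma; 241 at an unadjusted p under 0.05), so each of these rests on leaving out corpus replicate 2.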

How the results depend on the processing

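The share of parietal wells kept its direction in every alternative run, between -6.08 and -4.18 percentage points over thresholds and depths and between -7.42 (without corpus 1) and -2.73 (without corpus 3) with 1 plate left out, where no exact p below 0.0667 or 0.1 was possible. With the replicate number as a replicate block over replicates 1 to 3 it was -3.81, with the smallest exact p of 0.25 that 3 pairs allow. No paired analysis was run for genes, since the 4 plates share only the replicate number 3 between regions. With 5 plates, 0 genes passed between regions, and 415 did at a 1% threshold, 542 at 3000 UMIs or more and 542 with 1 Atp4b UMI required, settings under which corpus 2 fell below 10 wells, and 0 to 542 with 1 plate left out. For the difference from other wells these counts were 0, 158, 139, 141 and 0 to 141. With 4 plates 542 genes passed, and 118 without the 25% of wells richest in other markers, 41 thinned to 3000 UMIs, 953 scaled to all UMIs, 165 with no filter, 812 with voom weights and 124 to 1396 with 1 plate left out. For the difference the 141 became 50, 0, 528, 128 and, at a pseudocount of 0.5, 90, with 55 to 428. Against other wells 195 genes were called in 5 plates, 406 at 1%, 389 at 3000 UMIs, 392 with Atp4b, 306 at a pseudocount of 0.5, 667 at 2-fold, 35 at 8-fold and 212 to 392 with 1 plate left out, and in 4 plates 392, 1221 at 2-fold and 88 at 8-fold, with 429 to 499. Of 94 named genes between regions 92 kept their sign in each 4-plate alternative that tested them. Both sign and call stayed the same in all of these alternatives for 21 of the 94. Most of the 94 had been named because they passed on the same plates. Thinning tested 53 of the 94 and the filter of 32 CPM 73. Thinning reversed Ndufv2 (-0.030) and Idh3a (-0.041). Corpus 2 reversed Tnni3 (0.40), Pfkfb3 (0.66), Ifi27l1 (0.53), Xbp1 (-0.48), Kit (0.44) and Mcpt2 (0.72). The causes were not tested. Few parietal wells in pylorus 1 and corpus 1 kept these plates out of gene comparisons.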
